A study of Mus musculus with 18 samples.

Results

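The genes described here are 38 nuclear receptors and liver-enriched transcription factors, chosen by symbol from a fixed list out of 52230 genes to which the liver transcripts of 18 mice were joined. Liver RNA was sequenced from mice that carried GKRP, the glucokinase regulatory protein encoded by Gckr, in its wild-type form (PP) or with a leucine in place of a proline (LL). The mice were the GKRP P446L knock-in line on the B6N background, were fed standard chow, and comprised 4 males and 5 females of the PP genotype and 4 males and 5 females of the LL genotype. Each library came from the liver of a single mouse, and the labels gave ages of 9 to 14 weeks in both PP groups, 11 to 14 weeks in female LL and 13 to 14 weeks in male LL mice, while the series text gave 14 weeks for all. The substitution changes a codon, so counts per gene do not show which form of GKRP a mouse carried. The question was how the sexes and the GKRP genotypes differed in the transcripts of the factors that set hepatocyte gene expression.

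Nuclear receptors are transcription factors that mostly bind small lipophilic ligands, such as fatty acids, bile acids, oxysterols, steroids, retinoids and thyroid hormone, and many of them bind DNA as heterodimers with a retinoid X receptor at repeats of the hexamer AGGTCA. The liver-enriched factors, which include the forkhead proteins FOXA, the C/EBP proteins, HNF4α and HNF6, act together on the enhancers of hepatocyte genes. In rodent liver many genes differ between the sexes because the pituitary releases growth hormone in pulses in males and more steadily in females, which is read through the transcription factor STAT5b.

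Libraries held from 3794671 to 6613905 estimated counts, so a gene at 10 to 20 counts carries a wide counting error. Values below are normalized counts, which are estimated counts divided by a size factor for each library, unless another scale is named. Of the 38 genes, 36 had at least 10 counts in at least 4 libraries and were tested. The retinoic acid receptor Rarb reached at most 9 counts in any library, and Nr4a1, an immediate-early orphan receptor, reached 10 counts in 1 library only. These 2 genes were not tested. A gene was called differentially expressed (DEG) when its DESeq2 adjusted P was below 0.05 and its fold change was at least 1.3 or at most 0.7. The P values weigh a difference between groups against the spread between these mice, which was estimated from all groups together.

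Fragment length, read from the deposited effective lengths, differed between libraries and groups. It was 369 to 631 bases in female PP, 247 to 377 in female LL, 396 to 630 in male PP and 203 to 582 in male LL libraries. Mitochondrial genes held 8.52 to 10.6% of the estimated counts in male PP, 9.96 to 17.9% in male LL, 9.09 to 11.97% in female PP and 10.5 to 13.7% in female LL libraries, with male LL 1 the highest. The part of this share in the results was not tested. The summed normalized counts of 10 hepatocyte markers were 465183 to 575154 in male PP, 554482 to 656431 in male LL, 774567 to 865766 in female PP and 650774 to 779623 in female LL livers, so hepatocyte transcripts were abundant in every library. Alb made up most of these sums, with group means from 348169 in male PP to 666570 in female PP livers. It was called higher in female PP than male PP livers, while Serpina1c was called lower in females of both genotypes. The sums therefore moved with sex.

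Levels between genes were compared on normalized counts per kilobase of transcript. On that scale 7 of the 38 genes had a mean over the 18 livers of at least 100, 22 were from 10 to under 100 and 9 were under 10. The 7 abundant genes were the xenobiotic receptor CAR (Nr1i3) at 508 ± 169 (SD, n = 18), C/EBPα (Cebpa) at 449.5 ± 89.4, HNF4α (Hnf4a) at 378 ± 62.1, the bile acid receptor FXR (Nr1h4) at 289.9 ± 33.0, RXRα (Rxra) at 191 ± 41.7, the oxysterol receptor LXRα (Nr1h3) at 184 ± 31.02 and the xenobiotic receptor PXR (Nr1i2) at 117 ± 22.5. Neighbours in this order overlapped in their range over libraries. Within the receptor subfamilies the members differed widely. Rxra stood above Rxrb, at 29.4 ± 4.92, and Rxrg, at 9.55 ± 3.84. Nr1h3 stood above LXRβ (Nr1h2), at 27.4 ± 8.65.

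PPARα (Ppara), the fatty acid receptor of fasting liver, had 58.1 ± 36.6 normalized counts per kilobase, against 15.0 ± 5.01 for Pparg and 3.08 ± 0.986 for Ppard. The thyroid hormone receptor Thrb, the main hepatic form, had 18.0 ± 2.86 against 5.77 ± 1.88 for Thra. Among the forkhead factors Foxa3, at 59.1 ± 22.6, stood above Foxa2, at 29.3 ± 9.59, and Foxa1, at 14.4 ± 3.84. The least abundant tested genes were Ppard, the testicular receptor Nr2c2, at 4.71 ± 2.12, and Thra. Ranking the 38 genes by TPM gave the same 3 leading genes in the same order, but moved Nr1h2 from rank 19 to rank 10. The TPM of Nr1h2 was 45.5 in female LL 2 and 3.24 to 14.4 in the other livers.

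**Figure D1:**
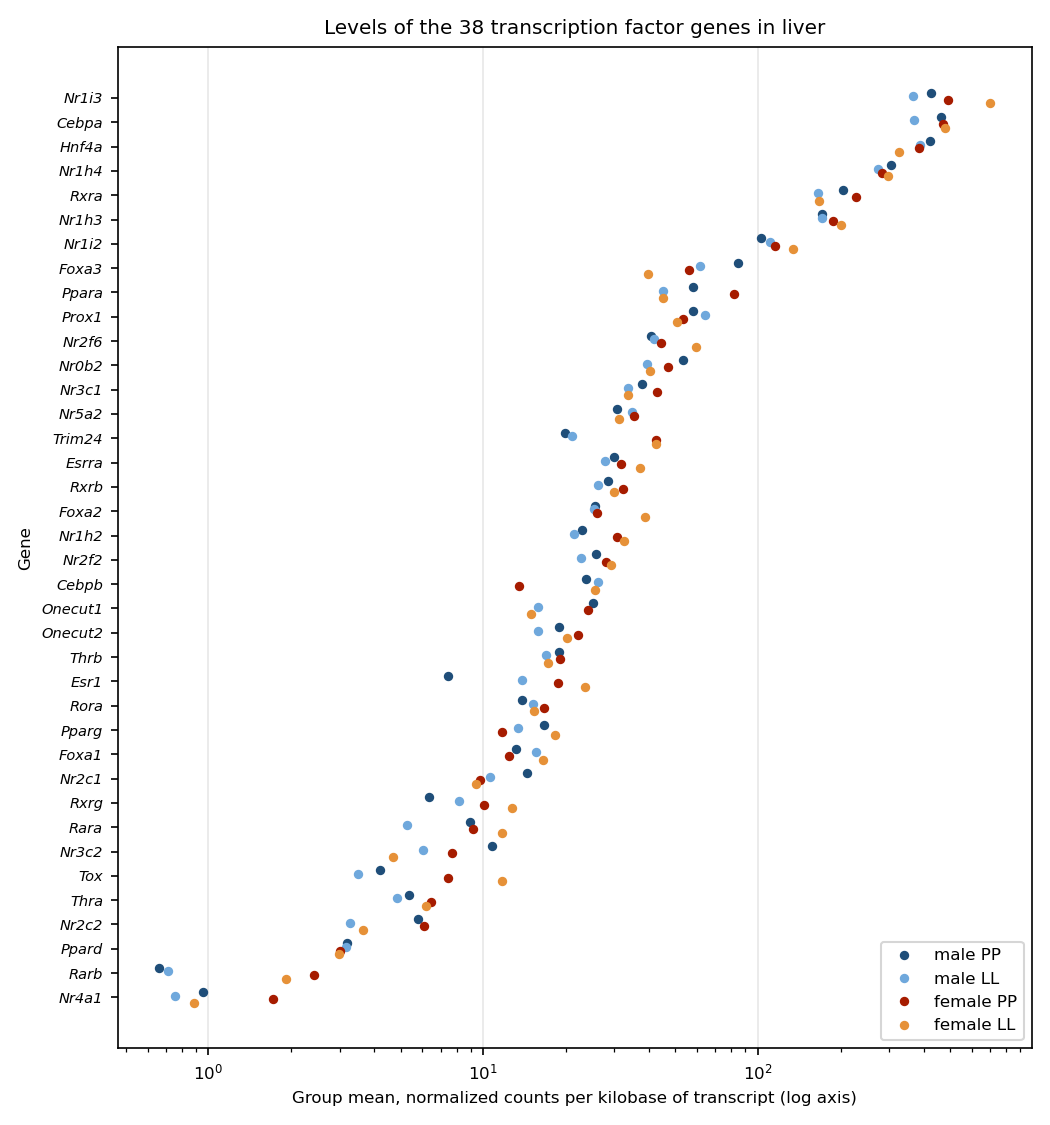
Group means of the 38 genes in normalized counts per kilobase of transcript (log axis), with a point for each of the 4 groups and genes ordered by their mean over 18 livers. The 7 genes at the top had a mean of at least 100, and Rarb and Nr4a1 at the bottom were not tested.

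Some of these genes share sequence with neighbours, which limits what an estimated count says. Of the 31-base words in the M39 transcripts of each gene, 67.6% of those of Nr1i3, 49.7% of Nr2f6, 43.9% of Onecut1, 39.0% of Nr2c2 and 27.4% of Ppara were also found, on either strand, in a transcript of another gene. For Trim24 this share was 4.11%, for Tox 5.29%, for Esr1 0.786%, for Rara 6.89%, for Foxa3 0.347% and for Nr3c2 7.95%. The strandedness of the libraries was not given in the sources used here, so reads of genes on opposite strands may not have been told apart. Onecut1 (HNF6) ranged from 5.40 to 214 normalized counts over the 18 livers.

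In PP mice, female livers had more of 2 of the 36 tested factors than male livers, the oestrogen receptor Esr1 and the bromodomain corepressor Trim24, and less of none. That is 5.56% of the factors, beside 6.45% of all 10938 genes tested (3.68% called higher). Log2 fold changes over the 36 genes ran from -0.78 to 1.33 with a median of 0.11, beside a median of -0.00165 over all genes tested. At an unadjusted DESeq2 p below 0.05 there were 6 factors, 3 higher and 3 lower, or 16.7% beside 17.5% of all genes. Most of the list, including all 8 lipid, bile acid and xenobiotic sensors and the 3 retinoid X receptors, was not called between the sexes in PP mice.

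In LL mice 4 factors were higher in females, Tox, Nr1i3, Trim24 and Rara, and again none was lower. That is 11.1% of the 36, beside 6.12% of all genes (3.33% called higher). The median log2 fold change of the 36 factors was 0.18, beside 0.0134 over all genes. At an unadjusted DESeq2 p below 0.05 there were 11 factors, 10 higher and 1 lower, or 30.6% beside 20.0% of all genes. Groups of mice did not overlap for 8 of the 36 factors in LL mice, beside 8.16% of all genes, and for 3 in PP mice, beside 9.74%. The 2 sex comparisons used different mice, while each shares its libraries with the genotype comparisons below.

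**Figure D2:**
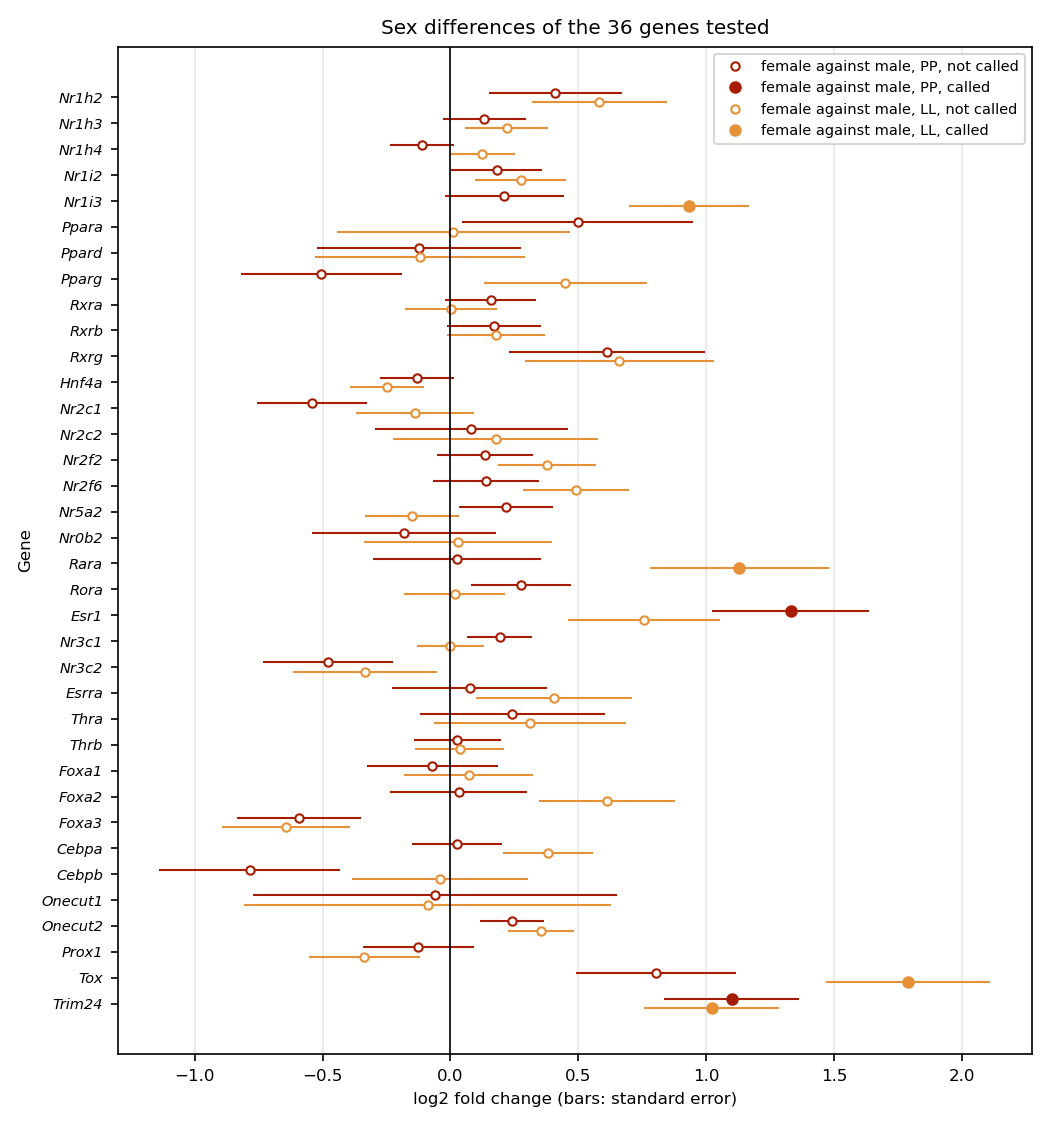
Log2 fold change of female against male livers for the 36 tested genes, in PP mice (red) and LL mice (orange), with bars for the standard error and filled points for DEGs. Esr1 and Trim24 were called in PP mice, and Tox, Nr1i3, Trim24 and Rara in LL mice, all to the right of 0.

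Trim24 (ENSMUSG00000029833, chromosome 6, 37847644 to 37945380, GRCm39) encodes TIF1α, a cofactor of nuclear receptors that restrains retinoic acid receptor signalling in liver. Male PP mice had 56.0, 94.4, 74.3 and 73.8 normalized counts and female PP mice had 105, 255, 185, 154 and 105. Male LL mice had 118, 73.1, 71.4 and 54.0 and female LL mice had 150.2, 178, 163, 186 and 121. Every female library was above every male library of its genotype. The log2 fold change of females against males was 1.10 ± 0.26 (SE) in PP mice, a 2.14-fold difference with a DESeq2 adjusted P of 0.00106. In LL mice it was 1.02 ± 0.26, or 2.03-fold, with a DESeq2 adjusted P of 0.00418. Trim24 was the only factor on the list called in both sex comparisons.

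Genotype left Trim24 at log2 fold changes of 0.07 ± 0.29 in males and -0.01 ± 0.24 in females (DESeq2 adjusted P = 0.990 and 0.995). The counts were split unevenly between the transcripts Trim24-203 and Trim24-201, which on average held 46.7% and 38.3% of the estimate, and the split in single libraries was unstable, with an SD of 47.7 percentage points for Trim24-203 over female LL mice. The gene values used here add both transcripts.

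Esr1 (ENSMUSG00000019768, chromosome 10, 4561593 to 4955626, GRCm39) encodes the oestrogen receptor ERα. Normalized counts in male PP mice were 48.0, 51.4, 39.5 and 47.7, the narrowest spread of the 4 groups, and female PP mice had 106, 135, 109, 134 and 102. All 5 female PP mice were above all male PP mice. Male LL mice had 71.3, 69.5, 60.7 and 147 and female LL mice had 72.8, 137, 260.2, 152 and 113, so the sexes overlapped in LL mice through a single male, male LL 4. The log2 fold change of females against males was 1.33 ± 0.31 in PP mice (2.51-fold, DESeq2 adjusted P = 0.000543) and 0.76 ± 0.30 in LL mice (1.69-fold, DESeq2 adjusted P = 0.103).

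Esr1 did not pass the threshold in LL mice with all libraries but did without male LL 4, where the log2 fold change was 1.14, without female LL 1, and with fragment length as a term. The difference between the sex effects of the genotypes, -0.57 ± 0.43, did not pass the test (DESeq2 adjusted P = 0.964). Transcript Esr1-204 held 98.7% of the estimate.

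The RefSeq windows from 250 bases before to 50 bases after the annotated starts of these 2 genes are printed because they were the factors called in PP mice. A search was made on both strands for the nuclear receptor hexamer AGGTCA and for the STAT5-like element TTCNNNGAA, and matches, none of which overlap, are in capitals. Coordinates are those of the RefSeq table, build GRCm38.p6, and all 4 windows are on the + strand.
Trim24, chr6:37870561-37870860: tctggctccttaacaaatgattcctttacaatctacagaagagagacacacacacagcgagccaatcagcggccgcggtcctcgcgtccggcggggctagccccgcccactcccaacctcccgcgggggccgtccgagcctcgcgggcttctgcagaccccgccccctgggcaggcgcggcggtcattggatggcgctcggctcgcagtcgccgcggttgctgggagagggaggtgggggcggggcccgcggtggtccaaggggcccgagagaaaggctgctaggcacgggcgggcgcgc
Trim24, chr6:37900237-37900536: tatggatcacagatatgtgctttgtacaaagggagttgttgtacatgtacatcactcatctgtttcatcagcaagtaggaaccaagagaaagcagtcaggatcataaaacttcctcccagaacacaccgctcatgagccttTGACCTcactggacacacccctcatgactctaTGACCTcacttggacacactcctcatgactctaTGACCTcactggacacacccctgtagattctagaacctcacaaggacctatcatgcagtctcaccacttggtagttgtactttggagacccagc
Esr1, chr10:4611739-4612038: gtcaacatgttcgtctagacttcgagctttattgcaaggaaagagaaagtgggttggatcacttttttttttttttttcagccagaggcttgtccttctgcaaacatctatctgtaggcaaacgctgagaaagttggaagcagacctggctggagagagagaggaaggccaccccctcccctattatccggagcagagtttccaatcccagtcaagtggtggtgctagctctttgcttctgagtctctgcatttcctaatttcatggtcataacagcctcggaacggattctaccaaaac
Esr1, chr10:4709908-4710207: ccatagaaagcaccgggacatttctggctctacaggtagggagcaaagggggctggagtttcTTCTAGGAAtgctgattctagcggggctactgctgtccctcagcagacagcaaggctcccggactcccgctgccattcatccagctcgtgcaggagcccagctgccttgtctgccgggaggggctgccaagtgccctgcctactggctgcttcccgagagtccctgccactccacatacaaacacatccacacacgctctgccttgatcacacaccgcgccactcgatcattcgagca

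The first Trim24 window and the first Esr1 window ended in sequence that is also in the most abundant transcripts, Trim24-203 and Esr1-204, and neither window held a match. The second Trim24 window held 3 copies of the hexamer as TGACCT, its reverse complement, and the second Esr1 window held a single STAT5-like match. Of 32851 RefSeq windows of the same length, 16.26% held AGGTCA and 8.298% held TTCNNNGAA. The table had 51 windows for 34 of the 38 genes, and 9 of these (17.65%) held the hexamer and 4 (7.843%) the STAT5-like element, close to the shares over all windows. The window of Nr1i3 held neither. Tox was not among the genes matched.

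Tox (ENSMUSG00000041272, chromosome 4, 6686353 to 6991644, GRCm39) encodes an HMG-box protein that is best known from T cell development and is also a sex-biased gene of mouse liver. In PP mice, males had 14.4, 9.44, 25.4 and 16.2 normalized counts and females had 19.96, 29.1, 27.7, 37.1 and 31.2. Male LL mice had 14.3, 24.0, 5.35 and 10.8 and female LL mice had 41.0, 45.4, 42.3, 46.9 and 52.5. The female LL livers were the highest of all 18, above every female PP liver as well. Females exceeded males by a log2 fold change of 1.79 ± 0.32 in LL mice (3.45-fold, DESeq2 adjusted P = 3.32e-06) and 0.80 ± 0.31 in PP mice (1.75-fold, DESeq2 adjusted P = 0.104).

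In PP mice Tox passed the threshold without male PP 3, at a log2 fold change of 1.12, and with age as a term. By LL genotype Tox stood at 0.65 ± 0.26 in females (unadjusted p = 0.0116, DESeq2 adjusted P = 0.228) and -0.33 ± 0.37 in males, and the difference between these, 0.98 ± 0.45, did not pass the test (DESeq2 adjusted P = 0.791). The lymphocyte and neutrophil markers on the list, 7 genes of which 1 was tested, summed to 25.0 to 60.5 normalized counts in male LL and 25.7 to 55.5 in female LL livers.

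Nr1i3 (ENSMUSG00000005677, chromosome 1, 171041506 to 171048270, GRCm39) encodes CAR, the receptor that induces drug-metabolizing cytochromes. Male PP mice had 1323, 705, 986 and 1540.3 normalized counts and female PP mice had 1385, 966, 1452, 1310.0 and 1475. Male LL mice had 1318, 918, 1138 and 562 and female LL mice had 1722, 1475, 1895, 2414 and 1879. The sexes overlapped in PP mice but not in LL mice. Between females and males the log2 fold change was 0.93 ± 0.23 in LL mice (1.91-fold, DESeq2 adjusted P = 0.00288) and 0.21 ± 0.23 in PP mice (DESeq2 adjusted P = 0.742), and the interaction of 0.72 ± 0.33 did not pass the test (DESeq2 adjusted P = 0.791).

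The gene on the opposite strand that overlaps Nr1i3, Tomm40l, an import protein of the outer mitochondrial membrane, had 41.5 to 73.1 normalized counts in male LL and 45.5 to 107 in female LL mice. The sum of both genes was 625 to 1360 in male LL and 1548 to 2464 in female LL mice, and again did not overlap. With Nr1i3 alone not overlapping, counts of Tomm40l this low could not bring the sums to overlap. The sum is therefore no separate test. This sum was looked at after the overlap had been seen. Nr1i3-208, which is protein coding, held 54.7% of the Nr1i3 estimate and Nr1i3-207, annotated as a retained intron, held 28.3%.

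Rara (ENSMUSG00000037992, chromosome 11, 98818612 to 98865768, GRCm39) encodes the retinoic acid receptor RARα, the receptor that TRIM24 restrains. Among PP mice, males had 24.0, 43.0, 22.6 and 23.4 normalized counts and females had 40.7, 40.9, 26.02, 21.7 and 15.3. Male LL mice had 14.3, 14.4, 17.0 and 20.5 and female LL mice had 32.8, 27.7, 23.6, 46.9 and 52.5. The 4 male LL livers were below all female LL and all male PP livers. For females against males the log2 fold change was 1.13 ± 0.35 in LL mice (2.19-fold, DESeq2 adjusted P = 0.0238) and 0.03 ± 0.33 in PP mice (DESeq2 adjusted P = 0.987), and the interaction of 1.10 ± 0.48 did not pass the test (DESeq2 adjusted P = 0.745).

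The call for Rara was the least stable on the list, being lost in 9 of 28 alternatives, among them edgeR and the fits without female LL 4, female LL 5, male LL 1, male LL 2 or male LL 3. Its log2 fold change ranged from 0.96 to 1.26 over these alternatives.

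Foxa3 (ENSMUSG00000040891, chromosome 7, 18747209 to 18757471, GRCm39), the most abundant of the 3 FOXA genes by its mean over the 18 livers, encodes HNF3γ. In female LL livers Foxa3 was level with Foxa2, at 39.7 ± 8.86 and 38.8 ± 10.2 normalized counts per kilobase. Male PP mice had 240.0, 156, 151 and 143 normalized counts and female PP mice had 167, 109, 109.9, 89.7 and 93.7. Male LL mice had 75.2, 139, 112 and 177 and female LL mice had 92.9, 74.1, 59.4, 72.8 and 105. Group means fell from male PP to male LL, then to female PP and last to female LL livers, with overlap between neighbours.

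For Foxa3 the log2 fold change of females against males was -0.59 ± 0.24 in PP mice (unadjusted p = 0.0149) and -0.64 ± 0.25 in LL mice (unadjusted p = 0.0103), with DESeq2 adjusted P of 0.133 and 0.0999. It was the only factor below 0 at an unadjusted p below 0.05 in both sex comparisons, and it was called with age as a term in both, without female PP 1 in PP mice (log2 fold change -0.77) and without male LL 1 in LL mice (-0.82).

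**Figure D3:**
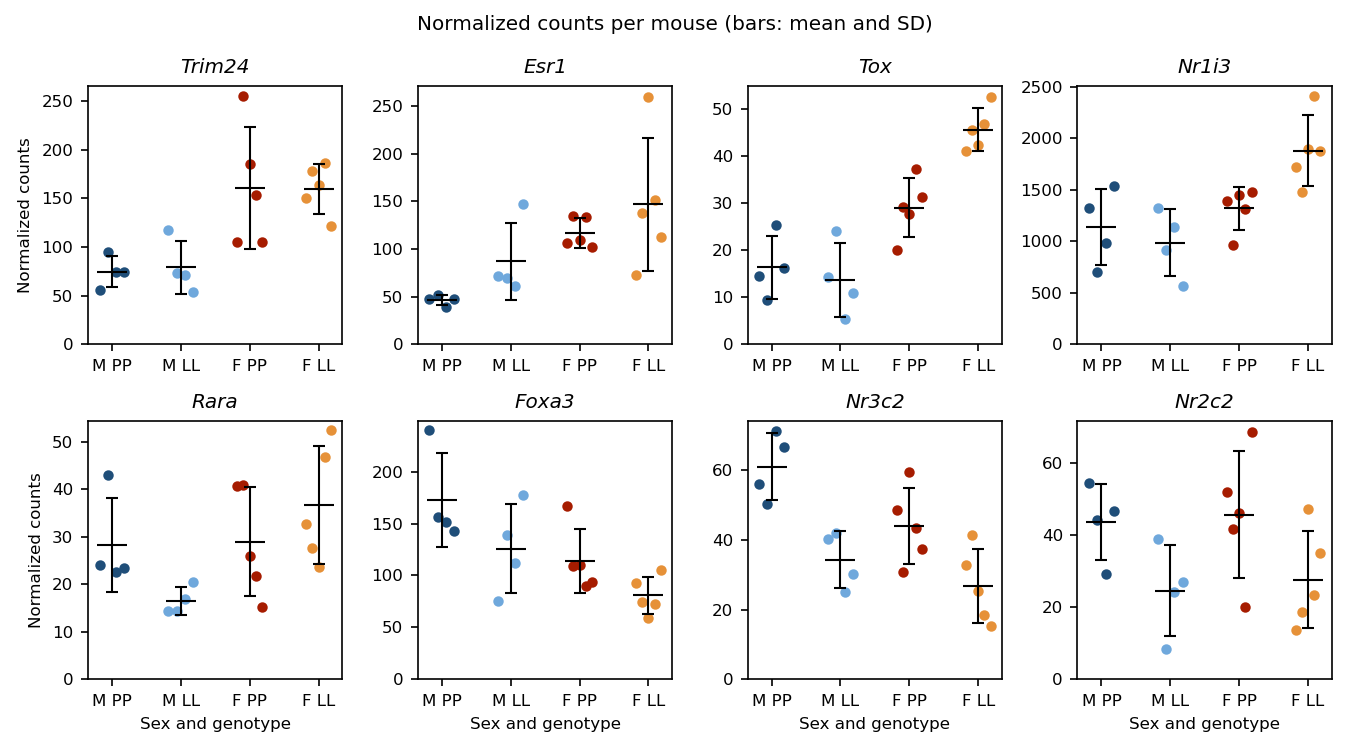
Normalized counts of 8 genes in each of the 18 livers (points), with the mean and SD of each group; M and F mark males and females. Trim24 was higher in females of both genotypes, and Tox and Nr1i3 had their highest group means in female LL livers. The group means of Nr3c2 were lower in LL than PP livers of each sex without passing the adjusted test.

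Other factors differed between the sexes only before adjustment. In PP mice the testicular receptor Nr2c1 was at -0.54 ± 0.22 and the stress-responsive Cebpb at -0.78 ± 0.35 on the log2 scale in females against males. In LL mice the factors above 0 at an unadjusted p below 0.05 that have not been described were Onecut2 (0.36 ± 0.13), Nr2f6 (0.49 ± 0.21), Foxa2 (0.61 ± 0.27), Nr1h2 (0.58 ± 0.26) and Cebpa (0.38 ± 0.18). Nr1h2 and Nr2f6 were called in LL mice only when a transcript length offset was used, and their log2 fold changes then rose to 1.54 and 2.01, so their size depended on how transcript length was treated. Hnf4a, whose product is required for the sex difference of many liver genes, was at -0.13 ± 0.14 in PP and -0.25 ± 0.14 in LL mice.

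Rarb, though not tested, had 5.04 to 7.19 normalized counts in female PP and 0 to 4.70 in male PP mice, at or under 9 counts in every library.

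Markers of 2 other liver cell types were also higher in female PP than male PP livers, where 3.68% of all genes were called higher. Of 7 sinusoidal endothelial markers 4 were called higher, and the 7 summed to 189 to 340.3 normalized counts in male PP and 382 to 784 in female PP mice. Of 6 tested stellate cell markers (of 8 listed) 5 were called higher, and the 8 summed to 328 to 664 in male PP and 788 to 1058 in female PP mice. In LL mice none of these markers was called, and the sums overlapped. The endothelial sum was 264 to 357 in males and 275 to 537 in females, and the stellate sum was 586 to 915 in males and 505 to 1038 in females. Of 7 Kupffer cell and macrophage markers Vsig4 was called higher in LL females. Their part in the PP results was not tested. In bulk liver a change in the number of cells of a type and a change in RNA per cell cannot be told apart.

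By LL genotype no factor was called in either sex. In males 0 of 36 passed (0%), beside 0.274% of all 10938 genes. With edgeR 0 of the 36 were called, but it called only 3 of all genes, so this adds little. At an unadjusted DESeq2 p below 0.05 there were 4 factors, Esr1 higher and Nr3c2, Rara and Nr2c2 lower, or 11.1% beside 7.81% of all genes. In males 25 of the 36 log2 fold changes were below 0, and their median was -0.15, beside 7.51e-05 over all genes. Groups did not overlap for 3 factors, beside 4.07% of all genes.

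In females 0 of 36 passed, beside 0.558% of all genes. With edgeR 0 were called, again with only 3 called over all genes. At an unadjusted DESeq2 p below 0.05 there were 12 factors, 6 higher and 6 lower, or 33.3% beside 13.0% of all genes. The median log2 fold change was -0.02, beside 0.0104, and groups did not overlap for 2 factors, Tox and Nr1i3, beside 2.66% of all genes. For Nr1i3 the lowest female LL liver, at 1475 normalized counts, was barely above the highest female PP liver, at 1474.88. The smallest DESeq2 adjusted P of a factor was 0.119 in females, for the glucocorticoid receptor Nr3c1, and 0.222 in males, for the mineralocorticoid receptor Nr3c2. Without female LL 2, Cebpb was called, and without female LL 5, Rxra was called.

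**Figure D4:**
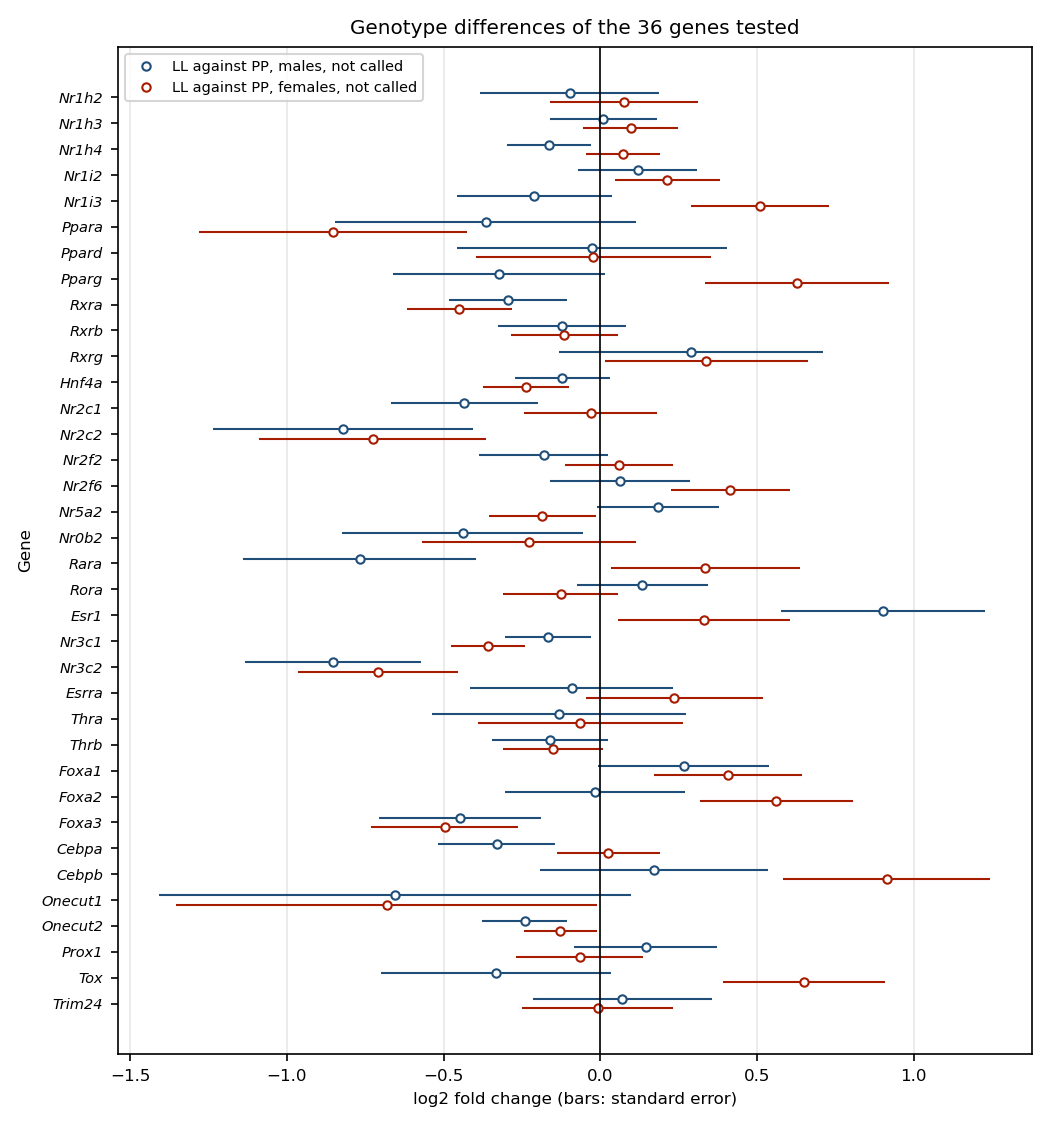
Log2 fold change of LL against PP livers for the 36 tested genes, in males (blue) and females (red), with bars for the standard error. All points are open because no gene was called; Nr3c2 and Nr2c2 lie below 0 in both sexes.

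Nr3c2 (ENSMUSG00000031618, chromosome 8, 77625576 to 77971863, GRCm39) encodes the mineralocorticoid receptor, which binds aldosterone and also glucocorticoids. Among males, PP mice had 56.0, 50.4, 71.4 and 66.6 normalized counts and LL mice had 40.2, 42.0, 25.0 and 30.2. Female PP mice had 48.7, 30.9, 59.6, 43.5 and 37.5 and female LL mice had 32.8, 41.5, 25.2, 18.5 and 15.3. All male LL livers were below all male PP livers, while the female groups overlapped. The log2 fold change of LL against PP was -0.85 ± 0.28 in males (unadjusted p = 0.00230, DESeq2 adjusted P = 0.222) and -0.71 ± 0.25 in females (unadjusted p = 0.00532, DESeq2 adjusted P = 0.167).

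Nr2c2 (ENSMUSG00000005893, chromosome 6, 92068059 to 92151275, GRCm39) encodes the testicular receptor TR4, an orphan receptor that is found in many tissues. In males, PP livers had 54.4, 44.1, 29.1 and 46.8 normalized counts and LL livers had 38.9, 8.39, 24.1 and 27.0. Female PP mice had 51.9, 41.8, 46.2, 19.9 and 68.7 and female LL mice had 13.7, 18.8, 47.2, 23.4 and 35.0. The groups overlapped in both sexes. LL against PP gave a log2 fold change of -0.82 ± 0.41 in males and -0.73 ± 0.36 in females (unadjusted p = 0.0474 and 0.0444), with DESeq2 adjusted P of 0.627 and 0.365.

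These 2 receptors were the only factors at an unadjusted p below 0.05 in both genotype comparisons, and each was lower in LL livers of both sexes. Neither passed the adjusted test in either sex, and neither was called in any of the alternatives. Both have long transcripts, of 5703 bases on average for Nr3c2 and 7536 for Nr2c2. With fragment length as a term Nr3c2 was at -0.76 in males and -0.59 in females. On the same fit Nr2c2 was at -0.65 in males and -0.42 in females.

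Esr1 in males moved from 46.7 ± 5.07 (SD, n = 4) in PP to 87.1 ± 40.1 (SD, n = 4) in LL mice, with no overlap. The log2 fold change of 0.90 ± 0.33 (unadjusted p = 0.00559, DESeq2 adjusted P = 0.338) was 0.52 without male LL 4, the liver with 147 normalized counts. Rara in males was at -0.77 ± 0.37, or -0.49 without male PP 2.

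In female LL livers the sensors and partners of lipid metabolism went both ways before adjustment. Ppara was at -0.85 ± 0.43 on the log2 scale, but its female PP mean of 257 ± 191 (SD, n = 5) rested on female PP 5, at 594 normalized counts, and without that liver the log2 fold change was -0.28. Rxra, the common heterodimer partner, was at -0.45 ± 0.17, with 1106 ± 122 normalized counts in female PP and 810.1 ± 221 in LL females. Pparg was at 0.63 ± 0.29, with 20.9 ± 8.52 in PP and 32.6 ± 10.8 in LL mice, and Nr1i3 at 0.51 ± 0.22.

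Among the other factors, Nr3c1 was at -0.36 ± 0.12 by LL genotype in females, Foxa3 at -0.50 ± 0.23, Foxa2 at 0.56 ± 0.24, Nr2f6 at 0.42 ± 0.19 and Cebpb at 0.91 ± 0.33, none of them past the adjusted threshold.

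These female differences moved with transcript length, and fragments were shorter in female LL than in most female PP libraries. Over the 36 factors the Spearman correlation of the log2 fold change with mean transcript length was -0.49 in females and -0.07 in males, and over all 10938 genes it was -0.40 and -0.11. These correlations are across genes of the same libraries and are given as descriptions. Of the 21 factors with transcripts longer than the median of all genes, 2633 bases, 5 were lower and 2 higher at an unadjusted p below 0.05, and of the 15 shorter ones 1 was lower and 4 were higher. Median log2 fold changes were -0.13 for the longer and 0.10 for the shorter factors. With fragment length as a term, 14 genes in all were called in females in place of 61. No factor was called with or without that term. Fragment length nearly separated the female genotypes, at 247 to 377 bases in LL and 369 to 631 in PP libraries. Its part and that of genotype can therefore not be told apart.

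**Figure D5:**
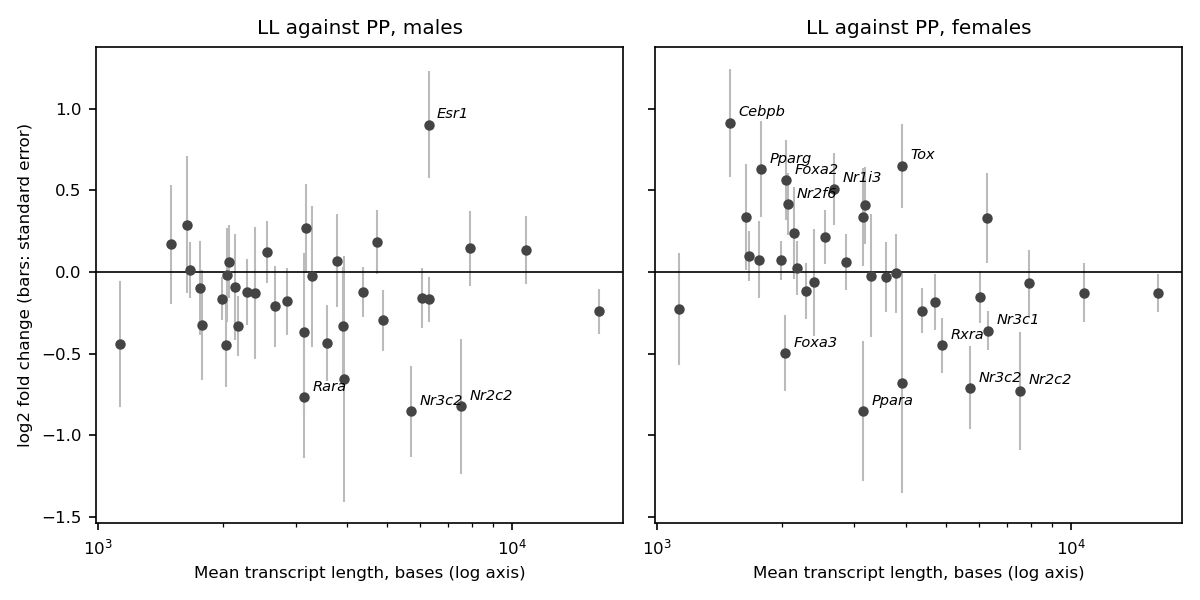
Log2 fold change of LL against PP livers (bars for the standard error) against mean transcript length (log axis) for the 36 tested genes, with names for genes at an unadjusted p below 0.05. In females (right) most named genes above 0 have shorter transcripts than those below 0; in males (left) no such slope is seen.

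Markers of other cells were also compared by genotype. Of 7 Kupffer cell and macrophage markers none was called, but 5 were lower in male LL and 3 in female LL livers at an unadjusted DESeq2 p below 0.05, with sums of 512 to 1274 (PP) and 476 to 804 (LL) normalized counts in males and of 963 to 1160 (PP) and 586 to 923 (LL) in females. Of the 7 sinusoidal endothelial markers Ptprb was called lower in female LL than female PP livers (-0.77 ± 0.21), a call lost in 15 of 28 alternatives, and 5 of the 7 were lower at an unadjusted p below 0.05. The endothelial sum was 382 to 784 in female PP and 275 to 537 in female LL livers, and 189 to 340.3 in male PP and 264 to 357 in male LL livers, where none passed that limit. Of the 6 tested stellate cell markers none was called by genotype, but 2 were higher in male LL livers at that limit, with sums of 328 to 664 (PP) and 586 to 915 (LL) in males and of 788 to 1058 (PP) and 505 to 1038 (LL) in females. Over all genes, 7.81% in males and 13.0% in females passed that unadjusted limit in either direction. The part of these cells in the genotype values was not tested. Of 6 cholangiocyte and 7 lymphocyte and neutrophil markers 1 each was tested, and neither was called in any comparison.

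The difference between the genotype effects of the sexes was tested directly. None of the 36 factors was called, beside 0.0731% of all genes. With edgeR 0 of all genes were called, so its result for the factors is no second test. At an unadjusted DESeq2 p below 0.05 there were 4 factors, Rara, Tox, Nr1i3 and Pparg, all with a higher LL effect in females, or 11.1% beside 5.67% of all genes (2.77% higher). The interaction of Pparg was 0.95 ± 0.45. The median over the 36 factors was 0.09, beside 0.0127 over all genes.

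Other transcription factors and cofactors were read from lists of the same pathways. Of 20 further nuclear receptors 7 were tested, and none was called in any comparison. Of 18 coregulators, among them the coactivators of the Ncoa family, 17 were tested and none was called in any comparison. At an unadjusted DESeq2 p below 0.05 the 2 lists had at most 3 and 4 genes in any comparison. Both maxima were in female LL against female PP livers, where 13.0% of all genes passed that limit. There, 2 of the 7 tested receptors were higher and 1 lower, and 1 of the 17 tested coregulators was higher and 3 lower. Of 35 further liver transcription factors 34 were tested. None was called by genotype in either sex.

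In females against males Cux2, a female-specific repressor that depends on growth hormone, was called in both genotypes, with 1.56 ± 1.39 normalized counts in male PP, 62.2 ± 50.9 in female PP, 0.540 ± 1.08 in male LL and 35.0 ± 14.3 in female LL mice. Bcl6, a male-biased repressor that opposes STAT5, was called lower in female PP mice (log2 fold change -2.09 ± 0.62), as was Xbp1 (-0.60 ± 0.18), a factor of the unfolded protein response. The Bcl6 call was lost in 4 of 28 alternatives and the Xbp1 call in 7. Stat5b was called higher in female LL mice (0.65 ± 0.21), a call lost in 10 of 28 alternatives. The list of growth hormone-dependent sex-biased factors holds 6 genes chosen for a known sex bias, so a count over it is not independent evidence of one. Of these 6, which include Tox and Trim24, 3 were called in PP mice, Cux2, Trim24 and Bcl6, and 4 in LL mice, Tox, Cux2, Trim24 and Stat5b.

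Known targets of the receptors were compared beside the receptors. Ppara itself was not called in any comparison. The PPARα target list was chosen with earlier results of these data known. It holds Cyp4a10, Cyp4a14 and Cyp4a31, all of which were called higher in female PP than male PP mice. A count over it is therefore not independent evidence of a PPARα response. In female PP against male PP mice 8 of 20 PPARα targets were called higher and none lower, beside 3.68% of all genes called higher, with a median log2 fold change of 0.57 over the list. In LL mice 3 of 20 were called higher, beside 3.33% of all genes. In males by LL genotype only Cyp4a14, a fatty acid omega-hydroxylase, was called, at 74.6 ± 61.1 normalized counts in PP and 1178 ± 994 in LL mice (log2 fold change 3.98 ± 0.70, DESeq2 adjusted P = 5.07e-05). A further 11 of the 20 were higher at an unadjusted p below 0.05, so 12 in all, beside 3.84% of all genes that were higher at that limit. The median of the list in males was 0.63, beside 7.51e-05 over all genes. In females by LL genotype 7 of 20 were higher at that limit, beside 6.65% of all genes, and none was called. Cyp4a14 was also the only target called in the interaction (-3.87 ± 0.93, DESeq2 adjusted P = 0.0460), a call lost in 17 of 26 alternatives.

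Of the targets of CAR and PXR 14 of 15 were tested, and 5 were called higher and 1 lower in female PP than male PP mice. Over all genes 6.45% were called there (3.68% higher). In female LL against male LL mice 5 targets were called higher, beside 6.12% of all genes called (3.33% higher). As the list holds the female-specific Cyp2b9, a count over it is not independent evidence of a CAR or PXR response. Cyp2b9, a female-specific cytochrome, went from 2.26 ± 3.86 normalized counts in males to 1558 ± 341 in females among PP mice, and from 16.4 ± 28.9 to 1414 ± 145 among LL mice. Slco1a4, an organic anion transporter, was called in both genotypes (2.39 ± 0.46 and 1.69 ± 0.46). No CAR or PXR target was called by genotype in either sex.

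Of the 9 LXR targets Scd1, the stearoyl-CoA desaturase, was called higher in male LL than male PP mice (1.47 ± 0.35), a call lost in 14 of 28 alternatives, and Scd1 and Pltp, a phospholipid transfer protein, were called higher in female PP than male PP mice (1.23 ± 0.33 and 1.405 ± 0.35). Pltp was also called higher in female LL than male LL mice (1.32 ± 0.34). Nr1h3 itself had 285 ± 17.0 (PP) and 287 ± 58.4 (LL) normalized counts in males and 313 ± 39.6 (PP) and 335 ± 71.7 (LL) in females.

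Of the FXR targets 8 of 10 were tested, and Cyp8b1, the sterol 12-alpha-hydroxylase, was called lower in female PP than male PP mice (-1.80 ± 0.53), as the only call on that list. Cyp8b1 is also on the HNF4α list. Nr0b2, which encodes the repressor SHP, an FXR target on both lists, was not called in any comparison. Of the 12 HNF4α targets Apoa4 was called higher in male LL than male PP mice (1.45 ± 0.29), and Apoc3 and Apoa2 were called higher and Gys2 lower in female LL than male LL mice (0.84 ± 0.23, 0.56 ± 0.17 and -0.52 ± 0.15). The Apoa2 and Gys2 calls were each lost in 9 of 28 alternatives and the Apoc3 call in 2. With a transcript length offset none of these 3 genes was called. The log2 fold change was then 0.44 for Apoc3 and 0.26 for Apoa2, and that of Gys2 turned to 0.46.

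Of the 12 glucocorticoid receptor targets Sgk1 was called higher in female PP than male PP mice (1.16 ± 0.32) and Tdo2 lower in female LL than male LL mice (-0.67 ± 0.18). Of the thyroid hormone targets 8 of 9 were tested, and Me1 was called higher in female PP than male PP mice (0.82 ± 0.27), a call lost in 12 of 28 alternatives. None of the genes on these 2 lists was called by genotype.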

How the data were processed

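Liver RNA of 18 mice was sequenced. The authors checked reads with FastQC and assigned them with Salmon 1.4.0 to GENCODE M26 transcripts (GRCm39). The deposited tables list 139225 transcripts with estimated counts, not scaled between libraries (90.8% of those above 0 were not whole), TPM scaled by the authors to a fixed total, and lengths. Estimated counts of the 137570 transcripts found in GENCODE M39 were summed per gene and rounded; the other 1655 were left out. Between-gene levels used normalized counts per kilobase, since TPM of genes with short transcripts was unstable. DESeq2 1.42.0 in R 4.3.3 was fitted to all 18 libraries with group as the only factor, Wald tests and Benjamini-Hochberg adjustment over 10938 genes, without independent filtering; edgeR 4.0.16 was an alternative. The interaction had no fold limit. Full values are given for members called in any comparison, or at an unadjusted p below 0.05 in both comparisons of a kind; at most 4 called genes per list and comparison are named. The members and lists were chosen with earlier results of these data known. The fit was tested on simulated counts. No 2 libraries of the same group matched within sampling noise. Errors are SE for log2 fold changes and SD otherwise. Some genes on the target lists are not reported here.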

Additional observations from a re-analysis of the deposited data

Results flagged for a closer look

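In 10 of 144 groups of the tested factors a single liver stood far from the rest of its group, where chance gives about 5% of groups. On the scale of normalized counts, male PP 1 had 6.40 for Ppard against 11.5 to 12.2 in the other male PP livers, and 240.0 for Foxa3 against 143 to 156. Male PP 2 had 191 for Nr1i2 against 277 to 294, and 43.0 for Rara against 22.6 to 24.0. Male LL 1 had 23.3 for Cebpb against 43.7 to 45.4, male LL 3 had 29.4 for Nr2c1 against 40.0 to 42.0, and male LL 4 had 147 for Esr1 against 60.7 to 71.3. Female PP 1 had 167 for Foxa3 against 89.7 to 109.9, and female PP 5 had 594 for Ppara against 133 to 219.9. Female LL 5 had 17.5 for Ppard against 6.92 to 8.94. The causes were not tested.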

How the results depend on the processing

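The number of factors called was 0 by genotype and in the interaction in every alternative that left out no single library. Leaving out single libraries gave 0 to 1 in females by genotype (Cebpb or Rxra), 0 to 0 in males and in the interaction, 2 to 3 between the sexes in PP mice and 3 to 5 in LL mice. With age as a term 4 factors were called between the sexes in PP mice in place of 2, adding Foxa3 and Tox. In LL mice edgeR and no filter on low counts gave 3, and a transcript length offset 6. Gys2 in LL mice went from -0.52 to 0.46 with that offset. Over the factors, targets and markers tracked singly, 2201 values under alternatives kept their direction and their side of the threshold, 175 lost a call, 13 gained one and 1 changed sign. Of the 2201, 843 belonged to results that were not called in the first place. Some alternatives left out a library of a group outside the comparison, which could move it only indirectly. These counts are therefore no measure of stability on their own. The causes were not tested.

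Over all genes edgeR called 3 in males, 3 in females and 0 in the interaction, in place of 30, 61 and 8. A length offset gave 53 in males and 26 in females, no filter 38 in females, and fragment length as a term 14 in females, 432 between the sexes in LL mice (in place of 669) and 17 in the interaction. Age as a term gave 15 in the interaction. Single libraries left out gave 20 to 52 in males, 28 to 247 in females and 3 to 16 in the interaction.

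Replicate numbers are shared by the groups, but same-numbered livers did not deviate together (correlations from -0.17 to 0.16), so they were not treated as paired. With the replicate number as a block 2 factors were called between the sexes in PP mice and 3 in LL mice, Rara being lost, and 0 in the other comparisons. Over all genes the block moved the interaction from 8 to 18 and no other count by more than 1.5 times. Depth limits factors near 10 counts, such as Ppard and Tox.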
